A study of Mus musculus with 4 samples.

Results

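The 9 RNAs described here, whose work is done without translation into protein, were followed in mouse cardiomyocytes that overexpress RBFOX2: Malat1, Neat1, Meg3, Rian, Mirg, H19, Kcnq1ot1, Gas5 and Snhg1. They were chosen by name and matched 9 of the 48432 gene rows of the deposited table, in which 9788 rows are long noncoding genes of the GENCODE M21 annotation. Cardiomyocytes, the contractile cells of the heart, were isolated from hearts by Langendorff perfusion, and polyadenylated RNA was sequenced. The control group was labelled with the MHC genotype (2 libraries), and the overexpressing group, called Rbfox2 OE, was labelled with the RbFox2 genotype (2 libraries). Per the series title the overexpressed protein is the non-muscle isoform of RBFOX2. Both groups were C57BL x FVB mice fed doxycycline for 3 days before the hearts were taken. The labels used here name no promoter, age or sex, and do not say whether a library came from 1 animal or several.

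The table holds 1 pooled FPKM value per gene and group (fragment counts scaled by transcript length and by library size), with a lower and an upper bound that stand in parentheses after a value here. It gives no value per library, so no replicate spread was known and no test between groups was possible. Differences are described in 3 ways: the plain ratio of Rbfox2 OE over MHC, the log2 ratio after adding a pseudocount of 1 FPKM, which shrinks the ratios of low genes, and whether the bounds of the groups were separate. No confidence level is given for the bounds, and the depth in reads is unknown. Rbfox2 itself checked the labels, at 14.7 FPKM in MHC (10.4 to 19.03) and 293 FPKM in Rbfox2 OE (214 to 373).

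Long noncoding RNAs of this kind act in several ways. Malat1 and Neat1 stay in the nucleus, where Malat1 gathers in speckles rich in splicing factors and Neat1 is the scaffold of paraspeckles. Meg3, Rian, Mirg, H19 and Kcnq1ot1 are imprinted, which means that they are transcribed from the copy of 1 parent only. Gas5 and Snhg1 carry small nucleolar RNAs (snoRNAs, which guide the modification of ribosomal RNA) in their introns, and their spliced remainder is degraded during translation.

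None of the 9 RNAs had separate bounds, and Gas5 alone passed a 2-fold difference with the pseudocount of 1. Of the 9, 7 reached 1 FPKM on average and entered the comparison, all of them at 1 FPKM or more in each group. Mirg and Kcnq1ot1 fell below that minimum. In the same comparison 17% of all 11697 genes differed at least 2-fold (6.97% higher and 10% lower in Rbfox2 OE) and 16.0% had separate bounds, 6.67% higher and 9.33% lower. For the 333 long noncoding genes compared, the shares were 25.5% at 2-fold (11.1% higher, 14.4% lower) and 12.6% with separate bounds (6.01% higher, 6.61% lower). A count of 1 among 7 lies near those shares and is not a result about these RNAs. By the plain ratio, without a pseudocount, Gas5, Snhg1 and Rian were past 2-fold, as were 24.4% of all genes (10.7% higher, 13.7% lower). The median log2 ratio of the 7 RNAs compared was 0.65, a description of RNAs chosen by name, beside -0.06 over all genes and -0.02 over long noncoding genes. Those 2 background medians turned to 0.06 and 0.07 when the values were rescaled without mitochondrial genes and the 10 most abundant genes, a step that raised Rbfox2 OE by 0.15 on the log2 scale. Rescaling also turned the split of all 2-fold genes from 815 higher and 1172 lower to 1042 higher and 926 lower.

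**Figure D1:**
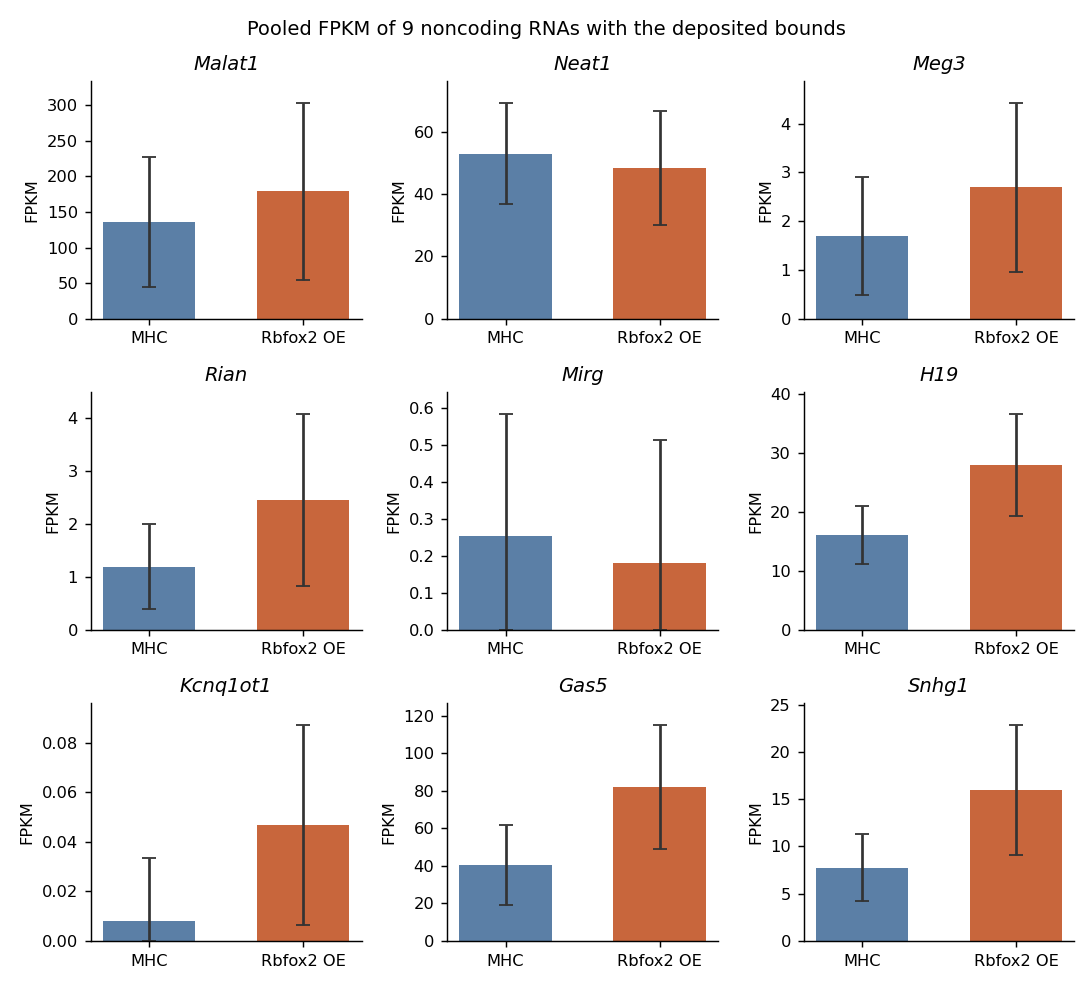
Pooled FPKM of the 9 RNAs in the MHC control (blue) and in Rbfox2 OE (orange), 1 panel per RNA with its own linear axis from 0; bars are the authors' pooled values and whiskers the deposited bounds. The whiskers overlap in every panel, and the bar is higher in Rbfox2 OE in 7 panels and lower for Neat1 and Mirg.

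The levels per length spanned a wide range and kept nearly the same order in both groups. In MHC the order from the highest FPKM was Malat1, Neat1, Gas5, H19, Snhg1, Meg3, Rian, Mirg and Kcnq1ot1. In Rbfox2 OE Gas5 and Neat1 changed places and the rest of the order stayed. Between neighbours in the MHC order the bounds overlapped except between Snhg1 and Meg3. In Rbfox2 OE they were separate there and also between Rian and Mirg.

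Malat1 and Neat1, the RNAs of nuclear bodies, showed little difference relative to their bounds. Malat1 (ENSMUSG00000092341.2, GRCm38 chromosome 19, 5795690 to 5802672, minus strand, annotated as a lincRNA) stood at 136 FPKM in MHC (44.0 to 227) and 179 FPKM in Rbfox2 OE (55.0 to 304). Its value was thus somewhat higher in Rbfox2 OE, and the bounds of each group contained the value of the other. The ratio was 1.32 and the log2 ratio 0.40, and 24.1% of all genes compared had a log2 ratio at least as high. Malat1 was the RNA of rank 4 among long noncoding genes in MHC and of rank 2 in Rbfox2 OE. Its bounds lay 67.6% of the level away in MHC and 69.3% away in Rbfox2 OE, against a median of 38.4% and 39.3% over all genes compared and 71.9% and 74.7% over long noncoding genes. Gm37376, on the opposite strand, overlaps Malat1 by 453 bases and stood at 0.306 and 0.451 FPKM, and Gm20417, which the table gives the same locus, at 0.0529 and 0.118 FPKM.

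Neat1 (ENSMUSG00000092274.2, chromosome 19, 5824708 to 5845478, minus strand, lincRNA) is the neighbour of Malat1 on the same strand. It stood at 53.1 FPKM in MHC (36.7 to 69.4) and 48.4 FPKM in Rbfox2 OE (30.1 to 66.6). The groups were nearly level, with a ratio of 0.912 and a log2 ratio of -0.13, which turned to 0.01 on rescaling. Neat1 has a short form with a poly(A) tail and a long form without one that builds the paraspeckle, and the annotation lists 4 transcripts of 711 to 20771 bases. The table gives 1 value for the gene, so the forms were not told apart. Malat1 likewise ends in an encoded A-rich stretch in place of a normal poly(A) tail, and its level after poly(A) selection may not show its level in the cell.

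RBFOX proteins bind RNA at the hexamer UGCAUG, so this hexamer was searched as TGCATG in the longest annotated transcript of each RNA. It was found in 7 of the 9 transcripts. The first match in each of these is shown with 12 bases on either side, from the GENCODE M21 transcripts, 5′ to 3′, with the hexamer in capitals.
Malat1: cagcagcagcagTGCATGgtgaagatagcc
Neat1: attctttgcggaTGCATGaatggcagcagg
Meg3: tacatcacataaTGCATGtttagctgggtg
Rian: tcatgcaggggtTGCATGtcaggcatgtgc
Mirg: aggaagacttgcTGCATGgtggatggccca
Kcnq1ot1: tgtgcttttctcTGCATGgtccttcccagc
Gas5: caattttgtgtgTGCATGtggtcccattac
These hexamers lie on GRCm38 at chr19:5801258-5801263 (Malat1, minus strand), chr19:5844124-5844129 (Neat1, minus strand), chr12:109559339-109559344 (Meg3, plus strand), chr12:109646241-109646246 (Rian, plus strand), chr12:109731727-109731732 (Mirg, plus strand), chr7:143296366-143296371 (Kcnq1ot1, minus strand) and chr1:161036262-161036267 (Gas5, plus strand).

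The number of matches followed the length of the RNA for the most part. Malat1 held 3 matches in 6983 bases and Neat1 9 in 20771 bases, a density of 0.430 and 0.433 per kilobase. Meg3 held 10 in 14548 bases, Rian 4 in 8089, Mirg 1 in 3822 and Kcnq1ot1 32 in 93092. Gas5 had the highest density, 1.56 per kilobase, with 4 matches in a transcript of 2556 bases, and 52.1% of the 7364 genes whose longest transcript is within 20% of that length held at least 1. The transcripts of H19 (2286 bases) and Snhg1 (2728 bases) held 0 matches, where 47.6% and 54.7% of genes of like transcript length held at least 1. For Malat1, Neat1, Meg3, Rian and Mirg the share of genes of like length with a match was 84.4%, 97.4%, 96.4%, 88.5% and 66.9%. The reverse complement CATGCA, which the RNA does not carry as UGCAUG, was found 2, 10, 9, 6 and 0 times in those 5 RNAs, 37 times in Kcnq1ot1 and 4 times in Gas5. A match is a stretch of letters and not a shown binding site. The counts hold for the longest annotated form alone, which may include stretches that shorter spliced forms lack. The annotation lists 25 transcripts of Gas5, the shortest of 346 bases, and 18 of Snhg1, the shortest of 312 bases. Which forms were present in these cells was not measured.

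The proteins that work with these nuclear RNAs were compared from lists. Of 20 paraspeckle protein genes compared, 1 was at least 2-fold higher in Rbfox2 OE and 0 were 2-fold lower, with a median log2 ratio of 0.09. This is no more than the shares of all genes, 6.97% higher and 10% lower. That 1 gene was Rbmx, an RNA-binding protein gene of the hnRNP family on chromosome X, at 15.3 FPKM in MHC (10.5 to 20.2) and 41.0 FPKM in Rbfox2 OE (28.7 to 53.3). Smarca4, a chromatin remodeller, had separate bounds in the other direction without reaching 2-fold, at 23.6 FPKM in MHC and 12.1 FPKM in Rbfox2 OE. The core proteins that hold Neat1 in the paraspeckle had overlapping bounds. Nono stood at 46.2 and 30.4 FPKM, Sfpq at 45.2 and 51.0 FPKM and Pspc1 at 8.52 and 7.36 FPKM in MHC and Rbfox2 OE. Of 13 nuclear speckle genes, 2 were at least 2-fold higher, beside 6.97% of all genes, with a median of 0.47. Pnn, a speckle protein, had separate bounds, at 13.5 FPKM in MHC (9.41 to 17.6) and 28.6 FPKM in Rbfox2 OE (20.1 to 37.0). Luc7l, a splicing factor gene, stood at 7.53 and 18.7 FPKM with overlapping bounds. Thrap3, the most abundant of the speckle list, stood at 53.7 and 60.4 FPKM.

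Meg3, Rian and Mirg lie one after another on chromosome 12, on the plus strand, within the imprinted domain between Dlk1 and Dio3, and are transcribed from the maternal copy. They were low in these cells, and the first pair was higher in Rbfox2 OE with overlapping bounds. Meg3 (ENSMUSG00000021268.17, 109541001 to 109571726, lincRNA) stood at 1.70 FPKM in MHC (0.485 to 2.91) and 2.70 FPKM in Rbfox2 OE (0.962 to 4.43), a ratio of 1.59 and a log2 ratio of 0.45. Rian (ENSMUSG00000097451.9, 109603940 to 109661716, processed transcript), which hosts a large group of snoRNAs, stood at 1.19 FPKM in MHC (0.385 to 2.001) and 2.45 FPKM in Rbfox2 OE (0.824 to 4.08). Its plain ratio of 2.06 was past 2-fold, while its log2 ratio with the pseudocount was 0.65. Mirg (ENSMUSG00000097391.8, 109729764 to 109749460, lincRNA), the host of a cluster of microRNAs, stood at 0.254 FPKM in MHC (0 to 0.584) and 0.181 FPKM in Rbfox2 OE (0 to 0.513). Both lower bounds of Mirg are 0, so its level cannot be told from 0 by the bounds.

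The rest of that domain gave little to compare. Of the 7 genes of the domain list found in the table, Meg3 and Rian were the 2 that reached a mean of 1 FPKM. Dlk1 and Dio3 were listed at 0 in MHC and stood at 0.0866 and 0.0990 FPKM in Rbfox2 OE, with lower bounds of 0. Rtl1 was listed at 0 in Rbfox2 OE and stood at 0.00197 FPKM in MHC, with a lower bound of 0. The locus that the table gives to Rian, 109603882 to 109661716, also holds 19 other rows, of which Gm26945 alone was above 0, at 0.00746 and 0.0140 FPKM. The locus of Meg3 holds 5 others and that of Mirg 15, all listed at 0 in both groups.

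H19 (ENSMUSG00000000031.15, chromosome 7, 142575529 to 142578143, minus strand, lincRNA) is an imprinted RNA of the maternal copy, abundant in the fetus, that lies beside the growth factor gene Igf2. It stood at 16.1 FPKM in MHC (11.1 to 21.1) and 27.9 FPKM in Rbfox2 OE (19.3 to 36.6). The value in Rbfox2 OE lay above the upper bound of MHC, and the bounds overlapped by a small margin. The ratio was 1.73 and the log2 ratio 0.76, with 11.5% of all genes at or above it. On rescaling the bounds of H19 became separate, with a lower bound of 21.3 FPKM in Rbfox2 OE against an upper bound of 21.1 FPKM in MHC, the 1 case among the 9 RNAs. H19 had the narrowest bounds of the 9 in Rbfox2 OE, at 31.1% of its value.

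Igf2, transcribed from the paternal copy, stood at 10.8 FPKM in MHC (6.30 to 15.4) and 19.4 FPKM in Rbfox2 OE (11.4 to 27.3). Its ratio of 1.79 was close to that of H19, and its bounds overlapped. H19 also carries the microRNA miR-675 in its first exon. Both mature products are shown here from RefSeq (GRCm38.p6, chr7:142577112-142577133 and chr7:142577078-142577099, minus strand) because the precursor is cut out of H19 itself, with the seed (bases 2 to 8) in capitals.
miR-675-5p: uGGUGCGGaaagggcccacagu
miR-675-3p: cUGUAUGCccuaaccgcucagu
The seeds of the 2 arms differ. The row of Mir675 was listed at 0 in both groups, so the table gives no measure of the microRNA.

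Kcnq1ot1 (ENSMUSG00000101609.1, chromosome 7, 143203458 to 143296549, minus strand, antisense) is an unspliced RNA of the paternal copy that silences its neighbours on that copy. It starts inside the potassium channel gene Kcnq1 and runs against it. It stood at 0.00804 FPKM in MHC (0 to 0.0335) and 0.0468 FPKM in Rbfox2 OE (0.00623 to 0.0873). The plain ratio of 5.82 rests on values near 0 with overlapping bounds, and the log2 ratio with the pseudocount was 0.05. All 93092 bases of Kcnq1ot1 lie within Kcnq1, which stood at 28.1 FPKM in MHC (17.3 to 38.8) and 3.71 FPKM in Rbfox2 OE (1.82 to 5.59). Whether strand was used in counting is not given in the sources used here, so fragments of Kcnq1 introns and of Kcnq1ot1 cannot be told apart. The table gives this locus to 12 other rows. Of the 5 above 0, Kcnq1 was followed by Gm38321, at 0.422 and 0.195 FPKM, and the other 3 (4933417O13Rik, Gm38095 and Gm37364) were lower still.

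Of 10 genes compared in the H19-Igf2 and Kcnq1 domains, 0 were 2-fold higher and 1, Kcnq1, was 2-fold lower, with a median log2 ratio of 0.13, a count near the 10% of all genes that were lower. Cdkn1c, a cell cycle inhibitor gene silenced by Kcnq1ot1 on the paternal copy, stood at 17.6 FPKM in MHC (10.2 to 25.1) and 17.9 FPKM in Rbfox2 OE (11.4 to 24.5). Its values were nearly level. Cd81, a tetraspanin gene and the most abundant of this list, stood at 265 and 154 FPKM with overlapping bounds. Among 28 other imprinted genes compared, 1 was 2-fold higher and 4 were 2-fold lower in Rbfox2 OE, with a median of 0.09. These counts lie near the shares of all genes, 6.97% higher and 10% lower. This list shares Cdkn1c and Igf2 with the domains above, and Ndn passed the minimum of 1 FPKM through its Rbfox2 OE value.

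Igf2r, the receptor that clears IGF2 and is transcribed from the maternal copy, had the largest difference of that list, from 34.7 FPKM in MHC (24.7 to 44.7) to 8.03 FPKM in Rbfox2 OE (5.39 to 10.7). Its antisense RNA Airn, which silences Igf2r on the paternal copy as Kcnq1ot1 does its neighbours, stood at 8.63 FPKM (0 to 27.1) and 7.29 FPKM (0 to 15.5). Copg2, a coat protein gene that overlaps the imprinted gene Mest, stood at 9.06 and 2.23 FPKM with separate bounds. Ppp1r9a stood at 3.74 and 1.22 FPKM with separate bounds. Trappc9 was 2-fold lower with overlapping bounds, at 12.05 and 4.17 FPKM. Dcn, a matrix proteoglycan gene that also stands in the fibroblast list, was the 1 gene higher, at 147 FPKM in MHC (105 to 189) and 301 FPKM in Rbfox2 OE (216 to 386). Gnas, the most abundant, stood at 545 and 289.9 FPKM and its bounds were separate, at -0.91 on the log2 scale.

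**Figure D2:**
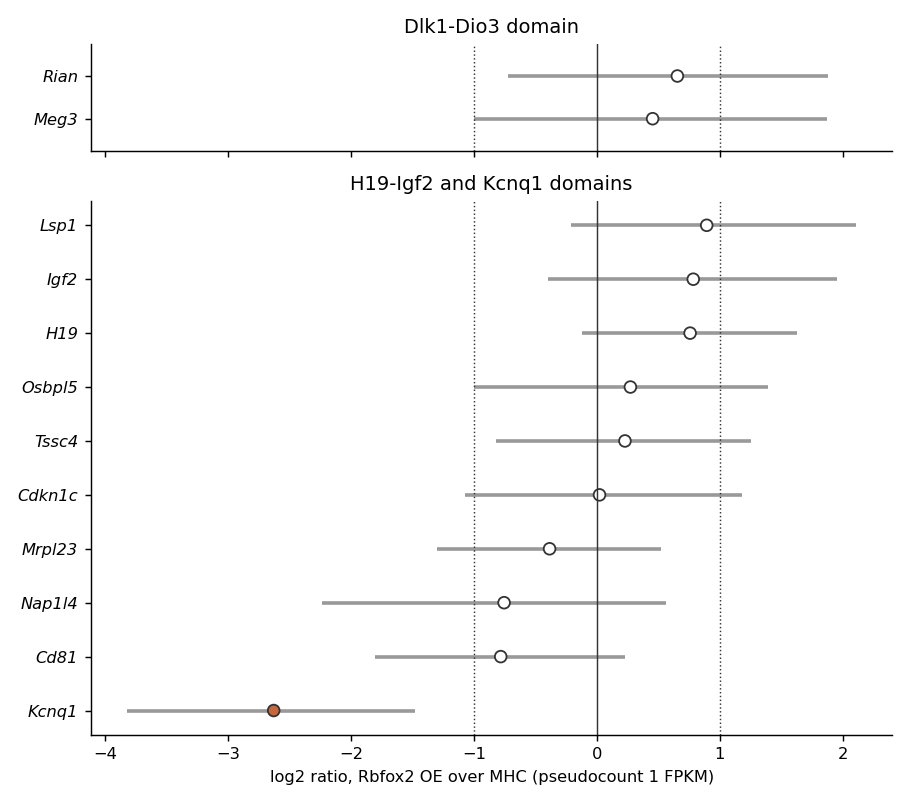
Log2 ratio of Rbfox2 OE over MHC for the genes compared in the Dlk1-Dio3 domain (top) and in the H19-Igf2 and Kcnq1 domains (bottom); points are pooled values, grey lines run from the nearest to the farthest pair of deposited bounds, filled points have separate bounds and dotted lines mark 2-fold. Kcnq1, at -2.63, is the 1 filled point, and H19 and Igf2 lie side by side at 0.76 and 0.78.

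Gas5 and Snhg1, hosts of snoRNAs, had the 2 highest log2 ratios of the RNAs compared. Gas5 (ENSMUSG00000053332.13, chromosome 1, 161034422 to 161038539, plus strand, processed transcript) stood at 40.4 FPKM in MHC (19.1 to 61.7) and 82.1 FPKM in Rbfox2 OE (49.1 to 115). Each value lay outside the bounds of the other group, and the bounds themselves overlapped. The ratio was 2.03 and the log2 ratio 1.004, just past the threshold, and 6.90% of all genes had a ratio at least as high. Snhg1 (ENSMUSG00000108414.1, chromosome 19, 8723475 to 8726443, plus strand, processed transcript) stood at 7.76 FPKM in MHC (4.24 to 11.3) and 16.0 FPKM in Rbfox2 OE (9.14 to 22.9). Its plain ratio of 2.06 was close to that of Gas5, and its log2 ratio of 0.96 fell short of the threshold because the pseudocount weighs more at its level.

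The loci of these hosts are shared with other genes. The first 428 bases of Gas5 overlap Zbtb37, a protein-coding gene on the opposite strand that stood at 1.61 FPKM in MHC and 1.17 FPKM in Rbfox2 OE. The table gives the Gas5 locus to 15 other rows, of which the 10 snoRNAs were all listed at 0 and Serpinc1, a gene that does not overlap Gas5, stood at 4.11 and 4.70 FPKM. The Snhg1 locus holds 8 snoRNA rows. Of these Snord22 was above 0, at 0.206 FPKM in MHC and 9.83 FPKM in Rbfox2 OE, and its bounds of 0 to 76.3 in Rbfox2 OE leave that value undetermined. Over the loci of all 9 RNAs, 65 of 66 rows of short RNAs were listed at 0 in both groups, among them 22 microRNA rows and 30 of 31 snoRNA rows. The table therefore measures the host RNAs and not the small RNAs that they carry.

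**Figure D3:**
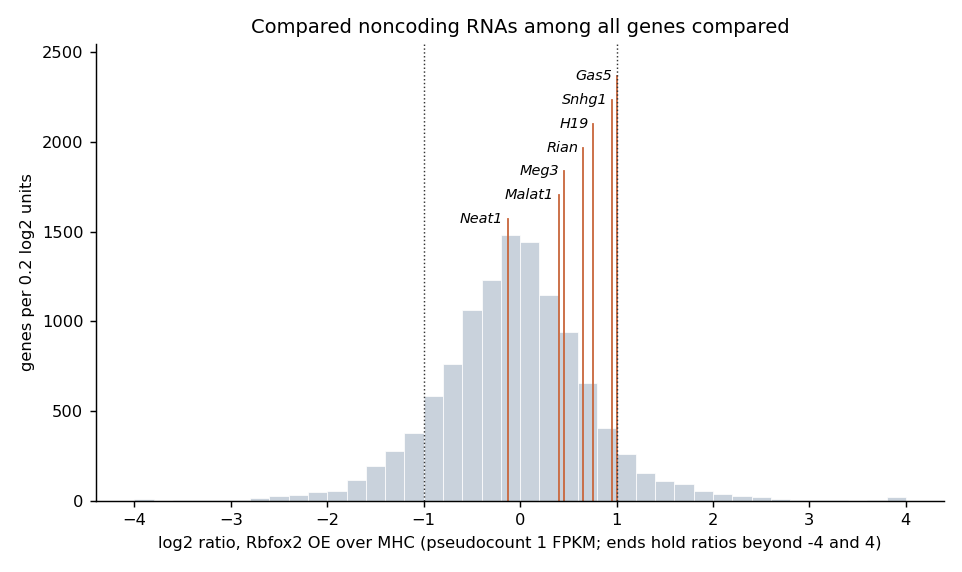
Number of genes per 0.2 log2 units of the ratio of Rbfox2 OE over MHC for all 11697 genes compared (grey bars), with an orange line at each of the 7 RNAs compared and dotted lines at 2-fold. Neat1 lies at -0.13, near the middle, the other 6 lie from 0.40 to 1.004, and Gas5 is at the upper dotted line.

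The wider group of snoRNA hosts was taken from a list of 21 RNAs that includes Gas5 and Snhg1. That list was chosen with earlier results of these data known, so its counts are a description only. Of 14 compared, 14 had a log2 ratio above 0, 6 were at least 2-fold higher and 5 had separate bounds, with a median of 0.89. The share of all genes was 46.2% for a log2 ratio above 0, 6.97% for 2-fold higher and 6.67% for separate bounds on the higher side. Of long noncoding genes compared, 47.7% had a log2 ratio above 0. Snhg15 and Snhg17 passed the minimum through the Rbfox2 OE value alone. Of the 5 listed names in the table that did not pass, 2 had lower values in Rbfox2 OE. Snhg14, which was above 1 FPKM in MHC alone, stood at 1.1404 and 0.164 FPKM with both bounds listed at 0. Snhg9 stood at 0.575 FPKM in MHC and was listed at 0 in Rbfox2 OE. Dancr and Snhg11 had higher values, at 0.614 and 1.34 FPKM and at 0.0176 and 0.0725 FPKM. Snhg7 was listed at 0 in each group, but the row of that name is annotated as a snoRNA and gives no measure of the host. With at least 1 FPKM in each group, 5 of 12 were 2-fold higher and 4 had separate bounds, against 5.51% and 5.21% of the 10857 such genes.

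Snhg5 had the largest difference of these hosts, at 4.14 FPKM in MHC (2.29 to 5.99) and 27.2 FPKM in Rbfox2 OE (18.3 to 36.1), a log2 ratio of 2.45. Snhg12 stood at 11.1 FPKM in MHC (5.81 to 16.4) and 35.1 FPKM in Rbfox2 OE (21.8 to 48.4), a log2 ratio of 1.58. The next 3 had bounds that were separate by a small margin. Snhg6 stood at 5.80 and 15.1 FPKM, Snhg15 at 0.628 and 2.84 FPKM and Snhg20 at 2.80 and 7.87 FPKM. Gas5 was the most abundant host in each group. At the other end Snhg3 stood at 7.35 FPKM (2.168 to 12.5) and 8.17 FPKM (2.09 to 14.2), and the bounds of Zfas1 and Snhg4 reached down to 0 in each group.

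**Figure D4:**
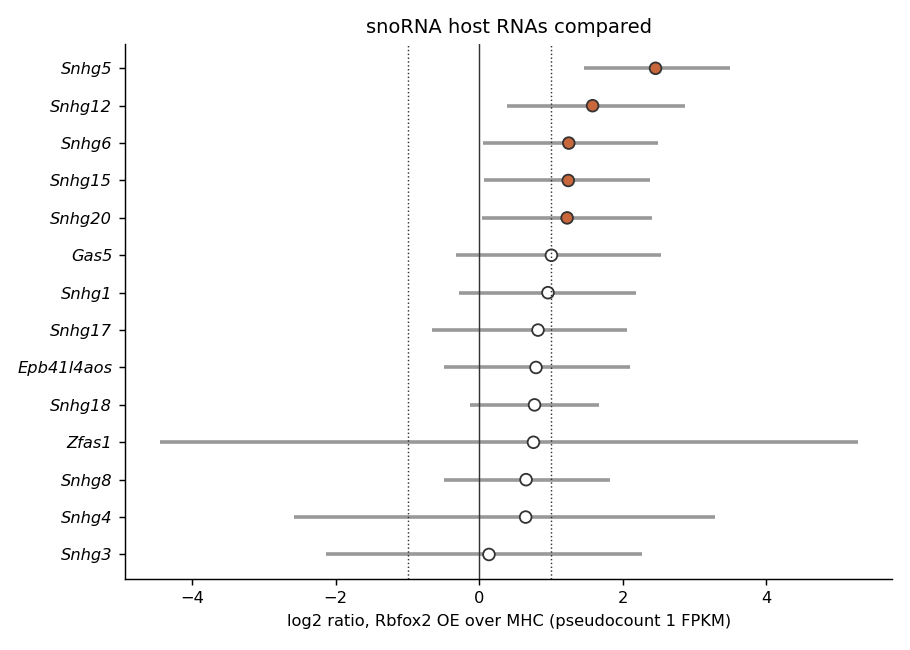
Log2 ratio of Rbfox2 OE over MHC for the 14 snoRNA host RNAs compared; points are pooled values, grey lines run from the nearest to the farthest pair of deposited bounds, filled points have separate bounds and dotted lines mark 2-fold. All 14 points lie above 0, from 0.13 for Snhg3 to 2.45 for Snhg5, beside 46.2% of all genes compared. The list was chosen with earlier results of these data known. The lines of Gas5 and Snhg1 cross 0.

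RNAs of snoRNA hosts often begin with a terminal oligopyrimidine tract, a C followed by C and T bases that ties translation to growth signals. The annotated starts of Gas5, Snhg1 and of 4 of the 5 hosts with separate bounds are shown from RefSeq (GRCm38.p6). The levels of the hosts were not tested against their starts. Snhg6, the other host with separate bounds, has no entry in the table of starts used here. Each line gives 20 bases before and 30 bases from the start on, 5′ to 3′. Capitals mark the first run of at least 5 C or T bases that begins with C and starts within 10 bases of the annotated start.
Gas5, first start: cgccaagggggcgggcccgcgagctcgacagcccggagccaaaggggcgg
Gas5, downstream start: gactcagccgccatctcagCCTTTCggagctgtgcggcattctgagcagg
Snhg1: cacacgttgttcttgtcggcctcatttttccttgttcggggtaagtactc
Snhg5: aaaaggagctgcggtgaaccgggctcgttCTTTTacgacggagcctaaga
Snhg12: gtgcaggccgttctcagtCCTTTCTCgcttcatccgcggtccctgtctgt
Snhg15: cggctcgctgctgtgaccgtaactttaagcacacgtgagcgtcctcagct
Snhg20: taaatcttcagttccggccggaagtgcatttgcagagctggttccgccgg
They lie at chr1:161034581-161034630 and chr1:161035146-161035195 (Gas5, plus strand), chr19:8723467-8723516 (Snhg1, plus strand), chr9:88522868-88522917 (Snhg5, minus strand), chr4:132308658-132308707 (Snhg12, plus strand), chr11:6528731-6528780 (Snhg15, minus strand) and chr11:117076763-117076812 (Snhg20, plus strand).

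Such a run was present at the downstream start of Gas5 and at the starts of Snhg5 and Snhg12, and not by this rule at those of Snhg1, Snhg15 and Snhg20. Of the 18 listed hosts with a RefSeq start, 10 had a run at 1 start or more. Counted by start, 10 of 20 host starts had one (50%), beside 30.7% of all 32851 annotated starts. The presence of a run is a description of the annotated sequence, and the start used in these cells was not measured.

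Other named RNAs, most of them long noncoding, were compared for context. Of 16 compared, 5 were at least 2-fold higher in Rbfox2 OE and 0 were 2-fold lower, with a median log2 ratio of 0.57. Beside these counts, 6.97% of all genes and 11.1% of long noncoding genes were 2-fold higher, and 10% and 14.4% were lower. The list is not confined to the long noncoding class, so the shares of that class are not those of a like set. Among those counted as higher, Rn7sk is annotated as a misc_RNA and Rpph1 as a ribozyme, and a gene annotated as protein-coding was also compared. With at least 1 FPKM in each group the count was 4 of 15 higher. The 3 largest were the short RNAs Rn7sk and Rpph1, which are transcribed by RNA polymerase III and carry no poly(A) tail, and Gm26917. Rn7sk, which holds back the elongation factor P-TEFb, stood at 1.65 FPKM in MHC (0.241 to 3.05) and 45.7 FPKM in Rbfox2 OE (29.0 to 62.5). Rpph1, the RNA of RNase P, stood at 0.689 and 13.1 FPKM, and its MHC value alone was under 1 FPKM. Gm26917 stood at 1.77 and 24.8 FPKM. Mir22hg, the host of miR-22, stood at 4.75 FPKM in MHC (1.77 to 7.74) and 36.0 FPKM in Rbfox2 OE (21.6 to 50.3). Tug1 was past 2-fold with overlapping bounds, at 9.10 and 19.9 FPKM. Mhrt, a heart RNA antisense to Myh7 and the most abundant of this list, stood at 90.3 FPKM (0 to 205) and 74.2 FPKM (0 to 154). The plain ratio was 27.8 for Rn7sk and 18.96 for Rpph1, and 1.32 for Malat1, which unlike them ends in an encoded A-rich stretch. The part of differing capture of RNA without a tail in the values of Malat1, Neat1 and these RNAs was not tested.

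Markers of other cell types also differed between the groups. In bulk samples fewer cells of a type and less RNA per cell cannot be told apart. Beside the counts below, 6.97% of all genes compared were at least 2-fold higher in Rbfox2 OE and 10% were lower. Of 10 fibroblast markers 7 were at least 2-fold higher, and their summed level was 234 FPKM in MHC and 551 FPKM in Rbfox2 OE. Of 10 macrophage and leukocyte markers 9 were higher, with sums of 119 and 420.3 FPKM. Endothelial markers summed to 515 and 787 FPKM with 3 of 10 at least 2-fold higher, smooth muscle and pericyte markers to 205 and 344 FPKM with 2 of 9 higher and 1 lower, and red blood cell markers to 56.6 and 295 FPKM with 4 of 5 higher. Of the red blood cell markers Hba-a2, one of those 4, and Alas2 reached the minimum through Rbfox2 OE alone, and 3 of the 3 with at least 1 FPKM in each group were 2-fold higher. No marker of these 5 lists was listed at 0. Of 10 cardiomyocyte markers compared 4 were 2-fold lower and 1 had a log2 ratio above 0. The summed level of this list was 63282 FPKM in MHC and 38726 FPKM in Rbfox2 OE. Myl2 and Tnnt2, the largest parts of that sum, had ratios of 0.73 and 0.65 and were not 2-fold lower. Myh6 and Mb were listed at 0 in each group with the status HIDATA, which Cuffdiff gives to loci with too many fragments. The cardiomyocyte label was thus matched by abundant Myl2, Tnnt2 and Tnni3, at 24688, 10609 and 7811 FPKM in MHC. The part of other cell types in the levels of Meg3, H19, Gas5, Snhg1 and the other hosts was not tested.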

How the data were processed

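Polyadenylated RNA of isolated cardiomyocytes was sequenced from 4 stranded libraries, 2 per group, grouped by their titles. The submitters' processing notes list STAR 2.4.2a and Cuffdiff 2.2.1 among the tools, and GRCm38. The authors deposited FPKM values from Cuffdiff with bounds in FPKM, per the file headers, as 1 pooled value per gene and group. Cuffdiff settings, annotation and strand use are not given in the sources used here. Cuffdiff divides fragments among overlapping genes, so genes that share a locus are uncertain. The number of unused columns with values per library was 0.

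From these values log2 ratios with a pseudocount of 1 FPKM were computed for genes that averaged at least 1 FPKM over both groups (Python 3.11.15, pandas 2.3.3). Rows sharing a name (110 names) were summed. Gene models and transcripts were those of GENCODE M21 on GRCm38, which held 99.2% of the identifiers. The design called for limma had values per library been present. The code for ratios and calls was run on simulated data, whose bounds were built from the same spread as the simulated noise. That run checks the code and cannot show how reliable the calls are in these data. Alternatives covered pseudocount, filter, fold threshold, scaling and status.

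The 9 RNAs and the 13 gene lists were chosen with earlier results of these data known, and the sequence searches after values were seen. Named genes were the 9 RNAs, genes that overlap them or share their locus (those listed at 0 as counts), up to 5 genes per list past 2-fold with separate bounds and the most abundant gene of each list, except 1 that is not reported here. Nono, Sfpq, Pspc1, Smarca4, Luc7l, Igf2, Cdkn1c, Airn, Trappc9, Tug1, Dlk1, Dio3, Rtl1, Ndn, Snhg3, Snhg4, Snhg7, Snhg9, Snhg11, Snhg14, Snhg17, Dancr, Zfas1, 2 red blood cell markers and 5 cardiomyocyte markers were named outside that rule, after their values were seen.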

Additional observations from a re-analysis of the deposited data

How the results depend on the processing

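No paired analysis was possible because the libraries have no values of their own, only 1 pooled FPKM in each group, and for the same reason the fits without each replicate were not run. The spread between libraries and the depth in reads are unknown, which limits every value and those near 0 most. The count of the 9 RNAs at least 2-fold apart, 1 and higher in Rbfox2 OE, was 2 with a pseudocount of 0.1, on centring on the median gene and on rescaling, 3 with no pseudocount, 4 at a 1.5-fold threshold, and 0 with a pseudocount of 5 or at a 4-fold threshold. The count with separate bounds was 1 (H19) in place of 0 on rescaling. Using no pseudocount, which counts genes listed at 0 as past any fold, was chosen after seeing the data. Centring of the list medians and the status filter on the counts with separate bounds were likewise not planned. The log2 ratio of Kcnq1ot1 was 0.44 with a pseudocount of 0.1 and 2.54 with none, since its values lie near 0. The other log2 ratios stayed inside the range of their bounds in all 5 alternatives, and Neat1 changed sign on rescaling. Those ranges are wide, so staying inside them is a weak check. For Rian the range was -0.72 to 1.88, and its log2 ratio went from 0.27 to 1.04 across the alternatives. Over all genes the 2-fold count of 1987 (815 higher, 1172 lower) was 863 (304 and 559) with a pseudocount of 5, 4520 (1938 and 2582) at 1.5-fold and 290.0 (136 and 154) at 4-fold, with 492 higher at a minimum mean of 5 FPKM and 1251 higher with no pseudocount. Of the list medians, that of red blood cell markers left the range of its bounds, at 1.30 with a pseudocount of 5, and 0 changed sign.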
